A study of Homo sapiens with 9 samples.

Results

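MYC acts in a network of DNA-binding proteins built around MAX, and 10 genes of that network were examined here: MYC, MAX, MXD1, MXD3, MXD4, MXI1, MNT, MLX, MGA and MYCBP. The genes were taken by name, for what their proteins are known to do, and earlier results of these data were known when they were chosen. All 10 were among the 16612 genes of the count table, and all 10 passed the filter on low counts that left 16312 genes for testing. RNA had been sequenced from HNT34, a human acute myeloid leukemia (AML) cell line with a 3q26 rearrangement and high expression of EVI1, the zinc-finger transcription factor encoded by MECOM. The cells carried a non-targeting shRNA (NT) or one of the EVI1-directed shRNAs, EVI1 sh#16 or EVI1 sh#87, each with 3 libraries, and were collected 3 days after selection. Per the methods, every group, NT included, was transduced with the same lentiviral vector carrying RFP and puromycin resistance, so each comparison is between transduced and selected cells. Each EVI1 shRNA is a single construct in a single cell line, and the labels do not say that the libraries of a group came from separate cultures, so p-values measure the spread between these libraries. The question put to these libraries here is how MYC and each of its partners behaved when EVI1 was depleted.

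MYC is a basic helix-loop-helix leucine zipper protein that binds DNA only as a dimer with MAX, usually at the E-box CACGTG, and drives genes of ribosome production, metabolism and growth. MAX also pairs with the MXD proteins, with MXI1 (also called MXD2), with MNT and with MGA, and these dimers occupy E-boxes as repressors, so that MYC and the repressors compete for MAX and for the same sites. MLX is the partner of a parallel branch, in which MondoA and ChREBP sense glucose metabolites, and it also pairs with MNT, MXD1 and MXD4. In blood cells MYC is typical of proliferating progenitors, and MXD genes typically rise when such cells mature.

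The targeted gene was checked first. MECOM stood at 571, 504 and 440.5 CPM (counts scaled to a common library size by the TMM method) in NT replicates 1, 2 and 3, at 145, 143 and 145 CPM with sh#16, and at 109, 107 and 106 CPM with sh#87. Every knockdown library lay far below the NT mean of 505 CPM, and MECOM was lower with sh#87 than with sh#16 by a log2 difference of -0.43 (SE 0.09, adjusted p = 0.00661, edgeR). The libraries held between 17096170 and 43502389 counts. Mitochondrially encoded genes took 15.9%, 11.5% and 4.69% of the counts in NT replicates 1, 2 and 3, 2.69% to 2.88% with sh#16 and 4.62% to 5.97% with sh#87. The biological coefficient of variation was 24.9% among NT, 3.75% among sh#16 and 6.97% among sh#87 libraries. Of the AML blast markers, 7 of 8 had a row in the table (CD34, CD33, KIT, PTPRC, SPI1, RUNX1 and GATA2), and their summed level was 2024 to 2171 CPM in NT, 639 to 645 CPM with sh#16 and 420.2 to 429 CPM with sh#87. CD34 itself, the progenitor surface marker, went from 731 CPM in NT to 116 CPM with sh#16 and 42.4 CPM with sh#87. CD34 and PTPRC (855 CPM in NT) weigh most in that sum. Of the 7 markers, 4 were called lower and 3 were not called with sh#16, and 6 were called lower and 1 was not called with sh#87. RUNX1, for example, averaged 224 CPM in NT and 214 CPM with sh#16. Of the erythroid markers 0 of 6 had a row, and of the monocyte and granulocyte markers ITGAM and S100A9 had one. ITGAM, an integrin of maturing myeloid cells, averaged 34.5 CPM in NT, 80.5 CPM with sh#16 and 59.1 CPM with sh#87, whereas S100A9 averaged 1.24, 1.99 and 0.605 CPM. ITGA2B, the only 1 of 5 megakaryocyte markers with a row, averaged 182, 64.9 and 33.2 CPM, and the 3 of 5 lymphocyte markers with a row summed to 23.5 to 47.5 CPM in NT and at most 9.51 CPM in the knockdown libraries. Of these, 2 were called lower and 1 higher with each shRNA. The part of these marker levels in the values of the network genes was not tested, and in bulk RNA fewer cells of a type and less RNA per cell cannot be told apart.

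The E-box itself was looked for in the promoters, since it is the sequence at which the dimers of the network meet. Of the 10 genes, 9 matched an entry in the RefSeq promoter sequences of GRCh38.p14, which run from 250 bases before to 50 bases after the start, and the promoter of MYC was not analysed here. CACGTG, which reads the same on both strands, stood in the 250 bases before the start of MXD4, MNT and MLX. The surrounding 30 bases of each are shown, 5′ to 3′ on the strand of the gene, with the E-box in capitals, because they place the site relative to the start of genes that differ in their response.
MXD4 promoter: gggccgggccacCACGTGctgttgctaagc
MNT promoter: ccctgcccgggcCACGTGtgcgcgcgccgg
MLX promoter: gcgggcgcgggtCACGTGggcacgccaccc
They lie at chr4:2262330-2262359 (minus strand), chr17:2401236-2401265 (minus strand) and chr17:42567038-42567067 (plus strand). The first base of the E-box is 238 bases before the start in MXD4, 193 bases in MNT and 50 bases in MLX. Among all 27305 promoters, 6.49% hold CACGTG in the same 250 bases, and among the 10373 promoters of tested genes 8.80% do. The variant CACGCG, searched on both strands, occurred once, 9 bases into the transcript of MXD3. MAX, MXD1, MXI1, MGA and MYCBP held neither sequence in the 300 bases. A match is a string of letters and does not show that a dimer was bound there, and no match speaks only for this window.

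With each shRNA, MYC and MAX fell, MXD1, MXD3 and MXD4 rose by 1.83- to 3.01-fold, and MXI1 and MYCBP passed the test in neither comparison. With sh#16 6 of the 10 genes were called at an adjusted p of at most 0.01 (edgeR's quasi-likelihood test, Benjamini-Hochberg over all genes tested): MXD1, MXD3 and MXD4 were higher, and MYC, MAX and MNT were lower. In that comparison 29.8% of all genes tested were called higher and 30.2% lower. With sh#87 6 genes were called, again with MXD1, MXD3 and MXD4 higher, and with MYC, MAX and MLX lower, beside 34.3% of all genes higher and 33.6% lower. With the libraries of both shRNAs as one group of 6, 5 genes were called, the same 3 MXD genes higher and MAX and MLX lower, beside 30.1% and 29.7% of all genes. The share of the network genes called is therefore close to that of all genes. These comparisons share the 3 NT libraries and are not independent of each other.

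In the fit that held all 3 groups, the NT libraries, which varied most, also entered the spread used between the shRNAs. A gene not called there is not shown to be equal. Between the shRNAs 1 gene of the network was called, MYC, which was lower with sh#87, beside 8.29% of all genes called higher and 9.42% lower. That count rose to 5, with MAX and MLX also lower and MXD1 and MNT higher with sh#87, when the fit held only the 6 knockdown libraries, and in that fit 48.0% of all genes were called in either direction, against 17.7% otherwise. It was 4 without NT replicate 1, beside 28.1% of all genes, and 4 without NT replicate 3, beside 32.4%, so the counts of all genes rose as well. The study's stricter rule for differential expression asks, beside the adjusted p of 0.01, for a log2 change of 2 or more in either direction. It was met by 0 of the 10 genes in every comparison with edgeR. DESeq2 and limma-voom also gave 0 with both shRNAs. Among all genes 12.8% met it with sh#16 alone, 18.9% with sh#87 alone, 15.4% when the shRNAs were joined, and 0.454% when sh#87 was set against sh#16. The median log2 fold change of the 10 genes was -0.14 with sh#16 and -0.21 with sh#87, beside 0.04 over all genes in both comparisons.

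The libraries of the compared groups did not overlap in 6 of the 10 genes with sh#16, 7 with sh#87 and 5 with both shRNAs as one group. The same held for 74.4%, 78.0% and 66.0% of all genes. Between sh#16 and sh#87 they did not overlap in 6 genes, beside 65.4% of all genes.

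**Figure D1:**
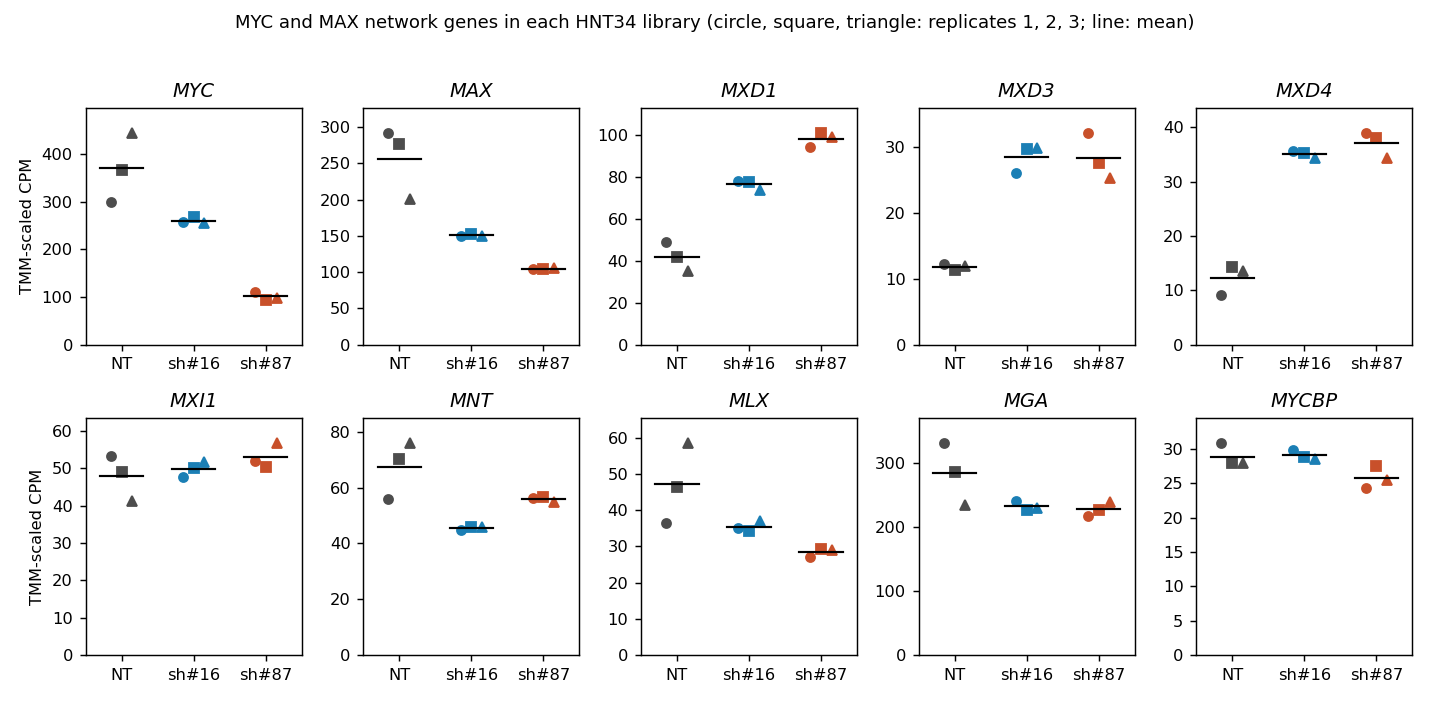
Level of each network gene (TMM-scaled CPM, axes from 0) in the 9 libraries, by group, with the group mean as a line. MYC and MAX were lower and MXD1 higher with each shRNA than in NT, the step from sh#16 to sh#87 was called for MYC but not for MAX (adjusted p = 0.0107) or MXD1 (0.0303), and MXD3 and MXD4 reached the same range with both shRNAs.

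MYC, at the head of the network, had 299, 366 and 444 CPM in NT replicates 1, 2 and 3, 256, 267 and 256 CPM in the sh#16 libraries and 111, 93.1 and 98.4 CPM in the sh#87 libraries. Every knockdown library lay below every NT library, and every sh#87 library lay below every sh#16 library. The means were 370 ± 72.5 CPM in NT, 260 ± 6.45 CPM with sh#16 and 101 ± 9.35 CPM with sh#87 (SD, n = 3 libraries each). MYC was 1.42-fold lower with sh#16 (log2 fold change -0.51, SE 0.13, adjusted p = 0.00665) and 3.66-fold lower with sh#87 (log2 fold change -1.87, SE 0.14, adjusted p = 1.86e-06). The shRNAs themselves differed by a log2 value of -1.36 (SE 0.13, adjusted p = 2.35e-04), which placed MYC at percentile 1.44 among all genes in that comparison. With the 6 knockdown libraries as one group the log2 fold change of MYC was -1.03 (SE 0.37), and its adjusted p of 0.0264 missed the threshold. A two-sided exact permutation test of MYC over the libraries gave p = 0.0238 there, where the smallest p of the design is 0.0119. DESeq2 called MYC in the same comparison (adjusted p = 0.00682).

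The decline of MYC with sh#16 rested on a narrow margin. It was no longer called without NT replicate 2 (adjusted p = 0.0197), without any of the sh#16 libraries (0.0249, 0.0192 and 0.0249 for replicates 1, 2 and 3) or without sh#87 replicate 2 or 3 (0.0107 and 0.0125), nor in a fit of the NT and sh#16 libraries alone (0.01995), while its log2 fold change stayed between -0.38 and -0.66 over 19 alternatives. The call of MYC with sh#87 and the difference between the shRNAs held under every alternative run. Within NT, MYC was lowest in replicate 1, the library with the largest mitochondrial share, and highest in replicate 3, which has the smallest. Leaving out the mitochondrially encoded genes left the log2 fold change of MYC with both shRNAs at -1.03. That step only removes their rows and rescales the counts. It cannot show whether MYC varied with the mitochondrial share of a library, which was not tested.

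MAX, the obligate partner, had 292, 277 and 200.3 CPM in NT, 149, 153 and 150 CPM with sh#16 and 104, 104 and 105 CPM with sh#87. The groups were fully separated, and the libraries of each shRNA lay close together (SD 1.86 and 0.691 CPM) beside those of NT (SD 49.1 CPM). MAX was 1.70-fold lower with sh#16 (log2 fold change -0.77, SE 0.12, adjusted p = 3.99e-04) and 2.45-fold lower with sh#87 (-1.29, SE 0.12, adjusted p = 1.11e-05). With both shRNAs it was 2.01-fold lower (-1.01, SE 0.17, adjusted p = 4.34e-04). The difference between the shRNAs, -0.53 (SE 0.12), had an adjusted p of 0.0107. It was called without NT replicate 1 (adjusted p = 0.00351) and without NT replicate 3 (adjusted p = 3.45e-05). MAX (GRCh38.p14, chr14:65006101-65102695, minus strand) shares 56550 bases with FNTB on the other strand. FNTB, which encodes a farnesyltransferase subunit, averaged 17.01 CPM in NT and 9.54 CPM in the knockdown libraries. The kit keeps strand, and whether the counting used it is not given in the sources used here.

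The MXD repressors moved the opposite way. MXD1, which recruits the SIN3 corepressor to E-boxes, had 48.7, 41.8 and 35.0 CPM in NT, 77.9, 77.5 and 73.5 CPM with sh#16 and 94.2, 101 and 98.7 CPM with sh#87. The libraries of the groups did not overlap, with NT lowest and sh#87 highest. MXD1 was 1.83-fold higher with sh#16 (log2 fold change 0.87, SE 0.11, adjusted p = 8.74e-05) and 2.34-fold higher with sh#87 (1.23, SE 0.11, adjusted p = 6.89e-06). Between the shRNAs it differed by 0.36 (SE 0.11, adjusted p = 0.0303), with an interval of 0.12 to 0.60. Without NT replicate 1 that adjusted p was 0.00293, and without NT replicate 3 it was 0.00174. MXD1 lies at chr2:69915109-69942945 on the plus strand, where ASPRV1, which had no row in the table, overlaps it on the other strand.

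MXD3, a repressor described in dividing cells and in B-cell leukemia, had 12.2, 11.3 and 11.9 CPM in NT, 26.04, 29.7 and 29.7 CPM with sh#16 and 32.1, 27.5 and 25.3 CPM with sh#87. The knockdown groups overlapped each other, and all their libraries lay above all NT libraries. The rise was 2.42-fold with sh#16 (log2 fold change 1.27, SE 0.11, adjusted p = 6.63e-06) and 2.40-fold with sh#87 (1.26, SE 0.11, adjusted p = 4.76e-06). The difference between the shRNAs was -0.01 with a 95% interval of -0.24 to 0.22 (adjusted p = 0.955). MXD3 lies at chr5:177305499-177312752 on the minus strand and shares 1451 bases with PRELID1, a mitochondrial lipid transfer gene on the other strand. PRELID1 averaged 102 CPM in NT and 78.3 CPM in the knockdown libraries. The part of shared reads in the counts of MXD3 was not tested.

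MXD4, at chr4:2247432-2262109 on the minus strand, had the largest fold change of the 10 genes with sh#16 and with the shRNAs joined. It counted 9.20, 14.2 and 13.6 CPM in NT, 35.7, 35.3 and 34.3 CPM with sh#16 and 38.9, 38.0 and 34.4 CPM with sh#87. Every knockdown library lay far above every NT library, and the shRNAs overlapped. The rise was 2.85-fold with sh#16 (log2 fold change 1.51, SE 0.15, adjusted p = 1.88e-05) and 3.01-fold with sh#87 (1.59, SE 0.15, adjusted p = 9.56e-06). The shRNAs differed by 0.08, with a 95% interval of -0.24 to 0.40. MXD4 thus showed no detectable step between the shRNAs, where MYC showed a difference of -1.36.

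MXI1, the remaining repressor of the group (chr10:110207605-110287365, plus strand), had 53.4, 49.1 and 41.2 CPM in NT, 47.6, 50.1 and 51.7 CPM with sh#16 and 52.1, 50.2 and 56.6 CPM with sh#87. All groups overlapped. The log2 fold change was 0.06 with sh#16 (95% interval -0.17 to 0.28, adjusted p = 0.629) and 0.15 with sh#87 (-0.08 to 0.37, adjusted p = 0.208). A change of the size seen in MXD1, MXD3 or MXD4 lies outside both intervals. The direction of MXI1 with sh#16 turned without NT replicate 3, to -0.07.

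**Figure D2:**
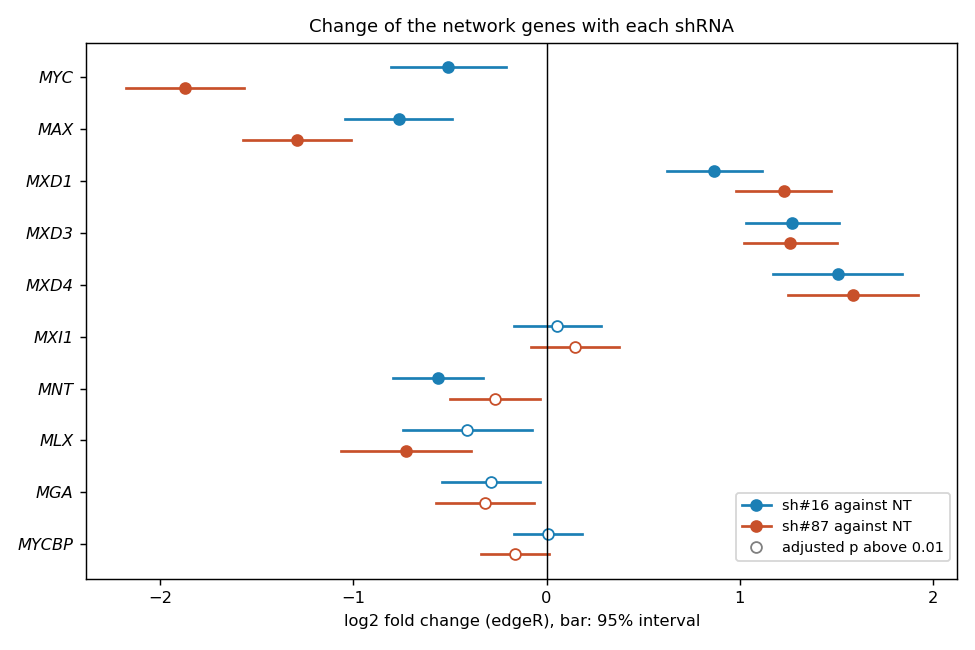
Log2 fold change of each network gene against NT with sh#16 and with sh#87 (edgeR, bars: 95% intervals, open symbols: adjusted p above 0.01). MYC is the gene whose intervals with sh#16 and sh#87 lie farthest apart, from -0.81 to -0.21 and from -2.18 to -1.56.

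MNT, a repressor present in resting and dividing cells alike and a known antagonist of MYC, had 55.9, 70.2 and 75.9 CPM in NT, 44.9, 45.9 and 46.0 CPM with sh#16 and 56.3, 56.8 and 55.0 CPM with sh#87. The sh#16 libraries lay below all others, and the sh#87 libraries reached the lowest NT library. MNT was 1.48-fold lower with sh#16 (log2 fold change -0.56, SE 0.10, adjusted p = 9.76e-04), while with sh#87 the log2 fold change was -0.26 (SE 0.10, adjusted p = 0.0397). Without NT replicate 1 the latter was called, with an adjusted p of 2.46e-04. The shRNAs differed by 0.30 (SE 0.10, adjusted p = 0.0534), with sh#87 higher in each library. That difference was called without NT replicate 1 (adjusted p = 0.00211) and without NT replicate 3 (adjusted p = 0.00989). In MNT the sh#16 mean of 45.6 CPM stood farther from NT (67.3 CPM) than the sh#87 mean of 56.1 CPM, the reverse of MYC and MAX. MNT lies at chr17:2384073-2401060 on the minus strand.

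MGA, the largest protein of the network, which joins MAX to a non-canonical polycomb complex, had 330.2, 286 and 235 CPM in NT, 241, 226 and 230 CPM with sh#16 and 216, 227 and 239 CPM with sh#87. The knockdown libraries overlapped NT replicate 3 and each other. The log2 fold change was -0.29 with sh#16 (SE 0.11, adjusted p = 0.0420) and -0.32 with sh#87 (SE 0.11, adjusted p = 0.0259), and neither was called. Without NT replicate 3 both were, at -0.43 (adjusted p = 4.26e-04) and -0.46 (adjusted p = 2.71e-04). In NT, MGA and MAX were highest in replicate 1 and lowest in replicate 3, whereas MYC, MNT and MLX ran the other way. MGA lies at chr15:41621224-41769940 on the plus strand.

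MLX, the partner of the Mondo proteins, had 36.3, 46.5 and 58.4 CPM in NT, 35.1, 34.3 and 36.9 CPM with sh#16 and 27.1, 29.3 and 28.9 CPM with sh#87. The sh#87 libraries lay below all others, and sh#16 overlapped the lowest NT library. MLX was 1.66-fold lower with sh#87 (log2 fold change -0.73, SE 0.15, adjusted p = 0.00155). With sh#16 it stood at -0.41 (SE 0.15, adjusted p = 0.0309), and without NT replicate 1 at -0.59 (adjusted p = 4.67e-04). With both shRNAs MLX was called (-0.56, SE 0.15, adjusted p = 0.00716), but not without NT replicate 2 (adjusted p = 0.0232), NT replicate 3 (0.0291), sh#16 replicate 2 (0.0107) or any sh#87 library (0.0158, 0.0159 and 0.0157 for replicates 1, 2 and 3), nor by limma-voom with a weight per group (0.0227). MLX (chr17:42567100-42573203, plus strand) shares 894 bases with PSMC3IP on the other strand, which averaged 19.4 CPM in NT and 25.5 CPM in the knockdown libraries.

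MYCBP, a small protein that binds MYC outside the dimer interface, had 30.8, 28.0 and 28.0 CPM in NT, 29.9, 28.9 and 28.5 CPM with sh#16 and 24.4, 27.6 and 25.5 CPM with sh#87. The sh#87 libraries lay just below all others. The log2 fold change was 0.01 with sh#16 (95% interval -0.17 to 0.19) and -0.16 with sh#87 (95% interval -0.34 to 0.01, adjusted p = 0.0837). MYCBP (chr1:38862490-38873378, minus strand) lies within the annotated read-through gene GJA9-MYCBP, so reads of both cannot be told apart by position. With that limit, MYCBP and MXI1 were the 2 genes of the network with an adjusted p above 0.05 in all 4 comparisons.

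Ratios within a library do not depend on the scaling between libraries, and they were formed from counts per kb of the canonical transcript. The summed level of the 4 MXD family genes (MXD1, MXD3, MXD4 and MXI1) over that of MYC was 0.473, 0.365 and 0.275 in NT, 0.891, 0.910 and 0.944 with sh#16 and 2.41, 2.73 and 2.52 with sh#87. The groups were far apart, and the mean ratio rose 2.47-fold with sh#16 and 6.88-fold with sh#87. With the longest transcript of each gene the sh#87 mean became 1.999 in place of 2.55, and the fold 6.51. In the sh#87 libraries the summed transcripts of these 4 genes thus exceeded those of MYC under both choices of transcript, and in NT they did not. The sum leaves out MNT and MGA, which also pair with MAX as repressors. From sh#16 to sh#87 the mean of MYC fell from 69.8 to 27.1 CPM per kb. The largest change among the 4 genes was that of MXD1, from 13.7 to 17.6 CPM per kb. The step between the shRNAs thus lay mostly in MYC.

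MYC over MAX gave a different picture. The ratio was 0.553, 0.713 and 1.196 in NT, 0.927, 0.944 and 0.921 with sh#16 and 0.576, 0.484 and 0.505 with sh#87. The sh#16 values lay inside the NT range, and the sh#87 values overlapped NT replicate 1. Every sh#87 value lay below every sh#16 value. MXD1 over MAX did not overlap between the groups, with 0.0605, 0.0546 and 0.0633 in NT, 0.189, 0.184 and 0.178 with sh#16 and 0.327, 0.351 and 0.340 with sh#87. Its mean rose 3.09-fold with sh#16 and 5.71-fold with sh#87.

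**Figure D3:**
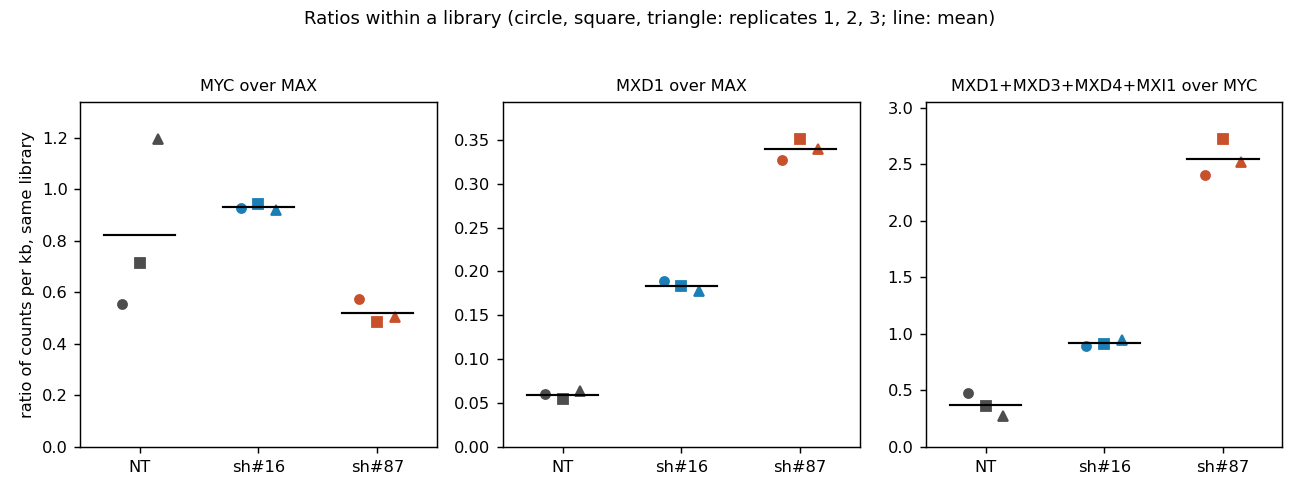
Ratios of counts per kb within each library, with the group mean as a line and axes from 0. MYC over MAX overlaps between NT and each shRNA, but not between sh#16 and sh#87. MXD1 over MAX and the summed MXD family over MYC rise from NT (mean 0.371 for the latter) to sh#16 (0.915) and sh#87 (2.55).

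Levels were compared between genes only per kb of transcript. In NT the order was led by MAX (128 ± 24.4 CPM per kb, SD, n = 3) and MYC (99.3 ± 19.5), whose libraries overlapped, followed at a distance by MGA (23.3 ± 3.91) and MLX (19.95 ± 4.68), which overlapped each other. MXI1, MNT, MYCBP and MXD3 came next, between 13.8 and 11.05 CPM per kb, each overlapping its neighbour. MXD1 (7.54 ± 1.23) and MXD4 (3.19 ± 0.705) were the lowest, each separated from the next. With sh#87 MAX still led, at 52.0 ± 0.344 CPM per kb, and MYC (27.1 ± 2.51) overlapped MXD3 (26.5 ± 3.24). MXD1 stood at 17.6 ± 0.601 CPM per kb there, next to MGA (18.6 ± 0.948) and overlapping it. The place of MXD3 and the order of MAX and MYC depend on the transcript used. With the longest transcripts MXD3 was at 12.4 CPM per kb with sh#87, and MAX was below MYC in NT, at 81.3 against 99.3 CPM per kb.

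**Figure D4:**
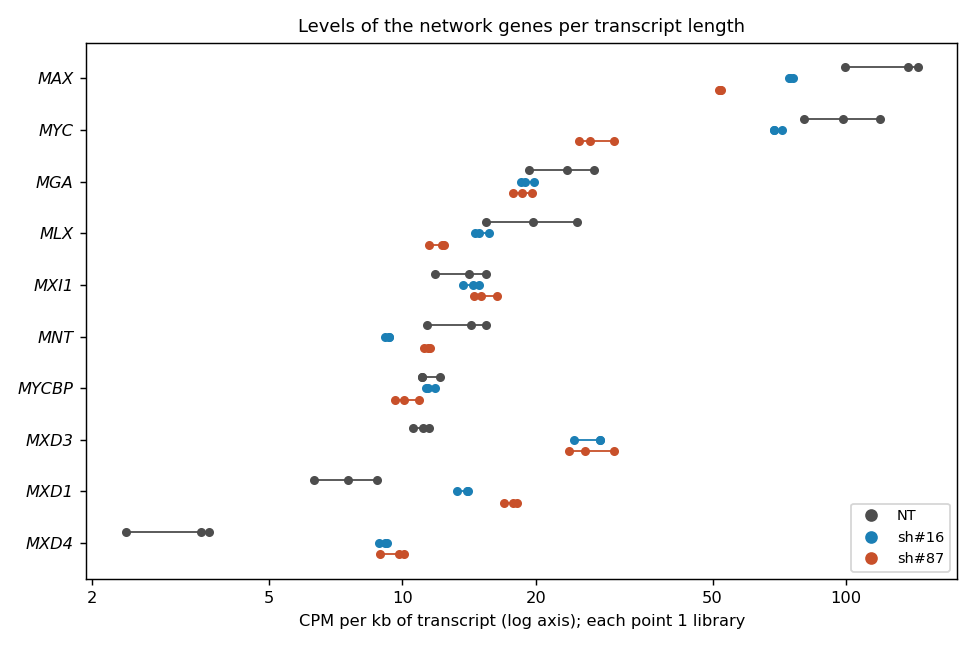
Level of each network gene per kb of its canonical transcript (log axis), with 1 point for each library and a line over the range of a group. In NT the genes span from MXD4 at 3.19 to MAX at 128 CPM per kb, and the span is narrower with sh#87, from MXD4 at 9.59 to MAX at 52.0.

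Over the 9 libraries, the 3 genes whose profile was nearest to MYC were MEX3B, an RNA-binding protein gene, H2BC7, a histone H2B gene, and GFI1B, a repressor of the erythroid and megakaryocytic lineages. Nearness was the root mean square distance of log2 CPM centred on each gene's mean, among the 11117 genes with at least 5 CPM on average. The distances were 0.170, 0.177 and 0.179, where MYC itself varied by 0.798 around its mean. GFI1B had 36.9, 51.3 and 70.9 CPM in NT, 27.2, 29.5 and 28.2 CPM with sh#16 and 13.0, 12.7 and 12.2 CPM with sh#87. Like MYC, within NT these genes were lowest in replicate 1. They were picked for nearness to MYC over all 9 libraries, NT included, so that shared order follows from the choice. H2BC7 belongs to a family of near-identical genes, so its counts may include reads of others. The nearest other gene of the network was MAX, at 0.444 and rank 577, and the farthest was MXD4, at 1.41 and rank 10023.

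Of the other MYC and Mondo family genes, 4 of 5 were tested. MYCN, the neural paralog of MYC, had 41.4, 55.3 and 67.2 CPM in NT, 39.4, 42.5 and 43.9 CPM with sh#16 and 26.7, 25.9 and 25.2 CPM with sh#87. Its log2 value fell by 1.07 with sh#87 (adjusted p = 1.56e-04) and by 0.69 from sh#16 to sh#87 (adjusted p = 0.00860), but with sh#16 its value of -0.38 was not called (adjusted p = 0.0444). MYCL was at 0, 0 and 1 counts in NT, at 33, 67 and 22 counts with sh#16 and at 23, 14 and 11 counts with sh#87, and at no more than 1.45 CPM it remained far below MYC and MYCN. MLXIP, which encodes MondoA, had 59.8, 73.0 and 88.5 CPM in NT, 113, 116 and 114 CPM with sh#16 and 170.0, 171 and 176 CPM with sh#87. It rose in every comparison, by 0.63 with sh#16 (adjusted p = 0.00117), by 1.22 with sh#87 (adjusted p = 1.37e-05) and by 0.59 from sh#16 to sh#87 (adjusted p = 0.00577), in the direction opposite to its partner MLX. MYCBP2, a ubiquitin ligase named for its binding to MYC, was 0.33 higher with sh#16 (adjusted p = 0.00466) and 0.55 higher with sh#87 (adjusted p = 1.58e-04). The median of the 4 genes was 0.48 with sh#16 and 0.89 with sh#87.

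Of 5 tested genes that MondoA and MLX are known to regulate, 4 were called between the shRNAs, beside 17.7% of all genes in either direction. TXNIP, an inhibitor of glucose uptake, had 249.2, 266 and 309 CPM in NT, 584, 569 and 561 CPM with sh#16 and 1319, 1442 and 1427 CPM with sh#87. It was higher in every library of a knockdown than in NT, by a log2 value of 1.06 with sh#16 (adjusted p = 7.66e-06) and 2.34 with sh#87 (adjusted p = 5.65e-08), and between the shRNAs by 1.29 (adjusted p = 6.12e-05). ARRDC4, an arrestin-domain gene of the same response, had 22.1, 21.8 and 19.0 CPM in NT, 16.5, 16.2 and 18.1 CPM with sh#16 and 43.2, 47.2 and 45.0 CPM with sh#87. It rose by 1.11 with sh#87 (adjusted p = 3.13e-06), and its value of -0.31 with sh#16 missed the threshold (adjusted p = 0.0107). ARRDC3 rose by 0.67 with sh#87 (adjusted p = 1.91e-05) and stood at -0.10 with sh#16 (adjusted p = 0.214). HK2, the hexokinase of the same list, fell with both, by 1.10 with sh#16 (adjusted p = 9.36e-07) and by 1.46 with sh#87 (adjusted p = 1.23e-07), and FASN stood at -0.32 (adjusted p = 0.345) and -0.60 (adjusted p = 0.0814). Of the 5 genes of this list that were tested, 1 was higher and 1 lower with sh#16, beside 29.8% and 30.2% of all genes. With sh#87 3 were higher and 1 lower, beside 34.3% and 33.6% of all genes. Against sh#16, 3 were higher and 1 lower with sh#87, beside 8.29% and 9.42% of all genes.

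Among 20 genes that MYC is known to activate, 10 were lower and 2 higher with sh#16, and 14 were lower and 1 higher with sh#87. Over all genes 30.2% were lower and 29.8% higher with sh#16, and 33.6% and 34.3% with sh#87, and these shares apply to each list that follows. Between the shRNAs 7 of the 20 were lower with sh#87 and 1 higher, beside 9.42% and 8.29% of all genes. Their median log2 fold change was -0.64 with sh#16 and -1.18 with sh#87, beside 0.04 over all genes in each. NCL, which encodes nucleolin, a protein of ribosome assembly, fell by 1.84 with sh#16 (adjusted p = 1.33e-04) and by 2.64 with sh#87 (adjusted p = 1.12e-05). NPM1, another nucleolar protein and a common target of mutation in AML, fell by 1.29 (adjusted p = 2.71e-04) and by 2.11 (adjusted p = 1.00e-05). ODC1, the first enzyme of polyamine synthesis and a classical MYC target, went the other way, with 0.44 (adjusted p = 4.90e-04) and 0.89 (adjusted p = 3.98e-06). BOP1, a ribosome assembly factor, was called higher with both shRNAs together (0.79, adjusted p = 0.00461), but with neither alone (0.83, adjusted p = 0.0101 with sh#16, and 0.76, adjusted p = 0.0141 with sh#87).

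Among 12 genes that MYC is known to repress, 9 were tested. With sh#16 3 were higher and 3 lower, and with sh#87 4 were higher and 2 lower, with medians of 0.68 and 0.38. CDKN1A, the cell cycle inhibitor p21, rose by 2.27 with sh#16 (adjusted p = 7.47e-05) and by 2.39 with sh#87 (adjusted p = 4.00e-05). CDKN1C was higher with both shRNAs together (1.32, adjusted p = 0.00567) and with sh#87 (1.46, adjusted p = 0.00370), but was not called with sh#16 (1.14, adjusted p = 0.0147), at a level of at most 0.864 CPM on average. GADD45A, a DNA damage response gene of the same list, fell by 1.25 (adjusted p = 3.95e-04) and by 1.35 (adjusted p = 1.98e-04), and KLF6 fell by 0.60 (adjusted p = 1.82e-04) and by 0.64 (adjusted p = 9.79e-05). The list thus did not move in one direction.

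**Figure D5:**
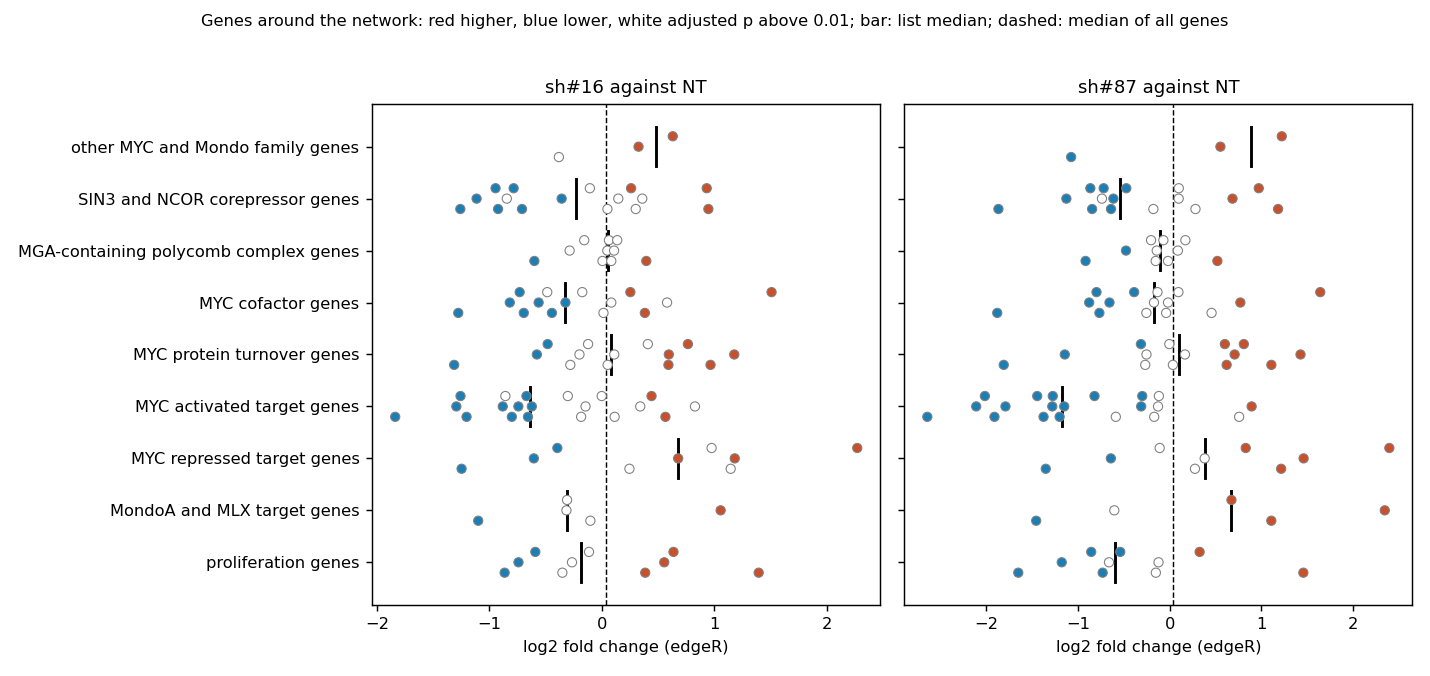
Log2 fold change of each tested gene in 9 lists of genes around the network, with sh#16 (left) and sh#87 (right) against NT. Red and blue mark genes called higher and lower, white marks an adjusted p above 0.01, bars are list medians (for example -0.64 and -1.18 for MYC activated target genes), and MYCL, with at most 1 count in any NT library, is left out of the points.

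The SIN3 and NCOR complexes are the corepressors through which MXD dimers act. Of their 16 genes 3 were higher and 7 lower with sh#16, and 3 were higher and 8 lower with sh#87, with medians of -0.23 and -0.54, beside 30.2% lower with sh#16 and 33.6% with sh#87 over all genes. HDAC2, a histone deacetylase of the SIN3 complex, fell by 1.26 with sh#16 (adjusted p = 5.23e-05) and by 1.87 with sh#87 (adjusted p = 3.30e-06). The SIN3-associated genes BRMS1 and SAP30L rose, by 0.93 and 0.95 with sh#16 (adjusted p = 2.89e-05 and 4.51e-06) and by 1.18 and 0.97 with sh#87 (adjusted p = 4.45e-06 and 2.53e-06). Of the 10 genes of the polycomb complex that contains MGA, 1 was higher and 1 lower with sh#16, and 1 was higher and 2 lower with sh#87, with medians of 0.06 and -0.11. RNF2, a ubiquitin ligase of that complex, fell by 0.60 with sh#16 (adjusted p = 9.79e-04) and by 0.92 with sh#87 (adjusted p = 5.39e-05), and RING1, its paralog, rose by 0.39 (adjusted p = 0.00272) and by 0.52 (adjusted p = 4.37e-04).

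Of 15 cofactors of MYC, 3 were higher and 7 lower with sh#16 and 2 were higher and 6 lower with sh#87, with medians of -0.32 and -0.17. WDR5 is counted both here and in the polycomb list. RUVBL2, an ATPase that MYC recruits, rose by 1.51 with sh#16 (adjusted p = 2.68e-05) and by 1.64 with sh#87 (adjusted p = 1.12e-05), and EP400, a chromatin remodeller of the same assembly, rose by 0.38 (adjusted p = 1.54e-04) and by 0.77 (adjusted p = 1.24e-06). PA2G4, a growth regulator also called EBP1, fell by 1.28 (adjusted p = 5.46e-05) and by 1.88 (adjusted p = 3.55e-06). SMARCB1, a subunit of the SWI/SNF remodeller, fell by 0.82 (adjusted p = 4.93e-06) and by 0.80 (adjusted p = 3.88e-06). Of 14 genes that set the stability of the MYC protein, 5 were higher and 3 lower with sh#16 and 6 were higher and 3 lower with sh#87, with medians of 0.08 and 0.10. STUB1, a ubiquitin ligase, rose by 1.18 (adjusted p = 7.62e-05) and by 1.43 (adjusted p = 1.64e-05). SET, an inhibitor of the phosphatase PP2A, fell by 1.31 (adjusted p = 4.61e-06) and by 1.81 (adjusted p = 4.39e-07). AURKA, a kinase, fell by 0.48 (adjusted p = 4.20e-04) and by 1.14 (adjusted p = 1.34e-06).

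Of 10 proliferation genes, 4 were higher and 3 lower with sh#16 and 2 were higher and 5 lower with sh#87, with medians of -0.19 and -0.60, and with sh#16 these counts are close to the 29.8% and 30.2% of all genes. RRM2, a subunit of ribonucleotide reductase, rose by 1.39 (adjusted p = 1.86e-06) and by 1.46 (adjusted p = 9.04e-07), while TYMS, thymidylate synthase, fell by 0.86 (adjusted p = 5.06e-06) and by 1.65 (adjusted p = 8.17e-08). PLK1, a mitotic kinase, fell by 0.59 (adjusted p = 0.00411) and by 1.18 (adjusted p = 5.20e-05), and PCNA, the replication clamp, rose by 0.64 (adjusted p = 4.94e-06) and by 0.33 (adjusted p = 2.67e-04).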

How the data were processed

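For the 9 libraries the authors deposited 1 table of estimated counts by gene, not normalized. All values were whole. The header is shifted left by 1 column and names salmon, whereas the methods name STAR, GRCh38 and ENSEMBL. In one label field the sh#87 libraries carry the number 18, and their titles were used. The members and lists of genes were chosen with earlier results of these data known. The named genes were the 10 members, 2 whole lists, the 2 highest and 2 lowest called genes of each other list, MECOM and the 3 profiles nearest to MYC. Some genes that this rule names are not reported here.

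Counts were normalized by TMM, filtered with filterByExpr and tested with the quasi-likelihood test of edgeR 4.0.16 in R 4.3.3. Single shRNAs used a fit of 3 groups, and both shRNAs a fit of 2 groups. DESeq2 1.42.0 and limma 3.58.1 served as alternatives. The fit was tested on simulated data. Transcript lengths came from GENCODE and loci and promoters from RefSeq (GRCh38.p14). Depth ran from 17096170 to 43502389 counts per library. No protein comparison was made.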

Additional observations from a re-analysis of the deposited data

Results flagged for a closer look

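The log2 value of MYC with sh#87 against sh#16 was -1.36 (edgeR, adjusted p = 2.35e-04). It was flagged because the responses to the shRNAs themselves differed by the test of that difference. A difference between the shRNAs was already known from earlier results of these data when that test was planned, so the test is not independent support. MYC was at 256, 267 and 256 CPM in the sh#16 libraries and at 111, 93.1 and 98.4 CPM in the sh#87 libraries, so 3 of 3 sh#87 libraries lay below all sh#16 libraries. MECOM, the target of both shRNAs, differed in the same direction by -0.43 (adjusted p = 0.00661), and the mitochondrial share was 2.69% to 2.88% with sh#16 and 4.62% to 5.97% with sh#87. Their part in the difference was not tested. In none of the 10 genes did the highest or lowest of the 6 knockdown libraries stand apart from the rest past Dixon's limit. Where the shRNAs lie apart, as in MYC, the gap between them widens the range. A single library could hardly pass the limit there.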

How the results depend on the processing

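The calls of MAX, MXD1, MXD3 and MXD4 against NT and the difference of MYC between the shRNAs held under every alternative run. Counts of called members moved as follows. At an adjusted p of at most 0.05, 8 members were called with both shRNAs and 3 between the shRNAs. The share of all genes at 0.05 is not given here, and at 0.01 it was already 59.8% and 17.7%. Between the shRNAs 2 were called by DESeq2 (beside 24.6% of all genes), 5 by limma-voom with a weight per group (45.3%), 5 with only the groups compared (48.0%), against 17.7% of all genes as reported, and from 1 to 4 with each library left out (4 without NT replicate 1 and 4 without NT replicate 3). A threshold of 1 in place of 2 on the log2 fold change made 4 members differentially expressed with both shRNAs. The share of all genes at that threshold is not given here. MYC with both shRNAs was called by DESeq2 alone (log2 fold change -1.05, adjusted p = 0.00682), and over its alternatives the adjusted p ran from 0.00682 to 0.140. Except where the setting itself sets the count, the cause was not tested.

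Directions reversed only in values near 0 that were not called. MYCBP turned to 0.03635 with both shRNAs under upper-quartile scaling, and with sh#16 to -0.01 under RLE scaling (-0.0111) and DESeq2 (-0.00992). MXD3 between the shRNAs turned to 0.00539 under upper-quartile scaling, 0.00101 with a mean of at least 10 counts and 0.00642 with only the groups compared. With each library left out, MXI1 ran from -0.01777 to 0.1757 with both shRNAs and from -0.06801 to 0.1264 with sh#16, MYCBP from -0.04064 to 0.04103 with sh#16, and between the shRNAs MXD3 ran from -0.1081 to 0.06535 and MGA from -0.06813 to 0.00595. Upper-quartile scaling moved the median of all genes with both shRNAs from 0.05 to 0.16 and ended the calls of MYC with sh#16 (adjusted p = 0.0166) and MLX with both shRNAs (adjusted p = 0.0187).

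Same-numbered libraries did not deviate together (correlations from -0.184 to 0.0989). These values give no sign that the numbers pair the libraries, though a weak shared effect could be missed. With a replicate block 4, 5, 6 and 1 members were called with both shRNAs, sh#16, sh#87 and between the shRNAs, in place of 5, 6, 6 and 1. Beside them 53.1%, 55.8%, 64.0% and 9.7% of all genes were called with the block. There MYC with both shRNAs stood at -1.02 (adjusted p = 0.0514). The calls lost were MLX with both shRNAs and MYC with sh#16. Each group has 3 libraries, NT varies most, and no exact test of 3 against 3 can go below p = 0.1.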
